A study of Homo sapiens with 6 samples.

Results

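AGMAT and 9 genes of arginine and polyamine metabolism (ARG2, ODC1, AMD1, SRM, SMS, SAT1, SMOX, AZIN1 and OAZ1) were followed in CAOV2 ovarian cancer cells transfected with siRNA. The labels call these human cells a cell line and, elsewhere, primary cells. The genes were picked by name from the 17211 genes listed in the deposited table, and all 10 were listed and passed the filter on low values. Poly(A) RNA was sequenced from 3 libraries of cells given a non-targeting siRNA (siNT) and 3 of cells given an siRNA reagent against YAP (siYAP). Both groups received 100 pmol of siRNA with 6 µL of lipid reagent for 2 days and were collected at day 3. The products named for the groups differ (Dharmacon D-012200 for YAP, AllStars Negative Control for siNT), so that loss of YAP and any other effect of either reagent cannot be told apart. The labels number biological replicates without saying that they came from separate cultures, and the p-values below measure only the spread between these libraries. YAP, the product of YAP1, is a co-activator that works with TEAD transcription factors and is restrained by the Hippo kinases.

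Polyamines (putrescine, spermidine and spermine) are small, positively charged molecules that bind nucleic acids and are needed for growth. Arginase makes ornithine from arginine, ornithine decarboxylase makes putrescine, and spermidine and spermine synthase add aminopropyl groups taken from decarboxylated S-adenosylmethionine. The pool is trimmed by acetylation, oxidation and export, and ornithine decarboxylase itself is held down by antizyme, whose translation polyamines induce. AGMAT, annotated as agmatinase and known from liver and kidney, belongs to the ureohydrolase family together with the arginases. It has been described as hydrolysing agmatine to putrescine and urea, though its substrate in humans is debated.

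The stretch upstream of AGMAT is shown first because AGMAT was the member that differed most between the groups. It lies at chr1:15585111-15585301 on the minus strand of GRCh38.p14 (RefSeq), 191 bases before the gene that no annotated GENCODE 29 exon covers. The short stretches below it, 30 bases each, are from the windows before the start of SRM (chr1:11060200-11060229, minus strand) and before the second annotated start of ODC1 (chr2:10448024-10448053, minus strand). Capitals mark the E-box CACGTG, the site that MYC and its partner MAX are known to bind; ODC1 is a textbook MYC target. All are printed 5′ to 3′.

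AGMAT: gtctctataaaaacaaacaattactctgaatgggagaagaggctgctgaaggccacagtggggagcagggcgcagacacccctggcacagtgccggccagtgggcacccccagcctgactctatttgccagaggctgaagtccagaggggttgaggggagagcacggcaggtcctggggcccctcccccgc
SRM: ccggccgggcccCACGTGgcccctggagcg
ODC1: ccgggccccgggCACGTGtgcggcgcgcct

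RefSeq windows of 250 bases before a start were used for 8 of the 10 members, 11 windows in all. SMOX and AZIN1 had none in the search. Windows on chromosome 8, where AZIN1 lies, were left out for the members. The 11 windows were searched on both strands for the E-box CACGTG, the TEAD core GGAATG and the AP-1 site TGANTCA. The E-box was found in the SRM window, 199 bases before the start, and in the second ODC1 window, 29 bases before that start. It was present in 6.34% of the 35116 windows of all genes. Neither GGAATG nor TGANTCA was present in any of the members' windows, including that of AGMAT, against 11.9% and 6.57% of all windows. A match of letters does not show binding, and its absence concerns only these windows.

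The libraries held between 25478595 and 31790340 reads over the listed genes, and values are normalized counts (reads divided by a size factor per library). YAP1, the targeted gene, had 6221, 5801 and 5955 normalized counts in siNT and 278, 327 and 294 in siYAP, 5.00% of its siNT level. Of 6 markers of ovarian carcinoma, 3 were listed, at a summed level of 30.4 to 59.9 normalized counts in siNT and 34.4 to 41.8 in siYAP, and 3 were not analysed here. All 6 epithelial markers were listed, with sums of 96330 to 104749 and 72574 to 79019; KRT7, KRT18 and KRT19 were called lower, CDH1 and EPCAM higher, and KRT8 was not called. Of the other marker lists, the 3 listed immune markers of 5 summed to 142.6 to 144.5 against 62.5 to 71.3, and PTPRC and CD3E were not analysed here. The 5 listed fibroblast markers of 6 summed to 5605 to 6387 against 14282 to 14787; LUM, COL3A1 and PDGFRA were called higher, and COL1A1 and COL1A2 lower. The 1 listed endothelial marker of 4, ESAM, ranged from 1673 to 1873 against 1261 to 1338.

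The members were chosen with this contrast known, so that their differences and calls are given as a description. Their calls come from the limma fit over all genes and do not test the members as a set. Across all genes, limma called 56.8% at an adjusted p under 0.05, 28.6% higher and 28.1% lower in siYAP. Among the 10 members 3 were called higher and 4 lower, while ARG2, AMD1 and SRM were not called. The 3 siYAP libraries lay all above the siNT libraries for 3 members (AGMAT, SMS and AZIN1), beside 30.9% of all genes. They lay all below for 5 members (ARG2, ODC1, SAT1, SMOX and OAZ1), beside 30.6% of all genes, and overlapped for AMD1 and SRM. Leaving AGMAT aside, the members differed little. Over the 10 members the median size of the log2 fold change was 0.16, against 0.30 over all genes tested. With values rescaled so that all libraries had the same total (equal totals), the share of called genes that were higher went from 50.4% to 62.1%, and the median log2 fold change of all genes moved from 0.0036 to 0.090.

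**Figure D1:**
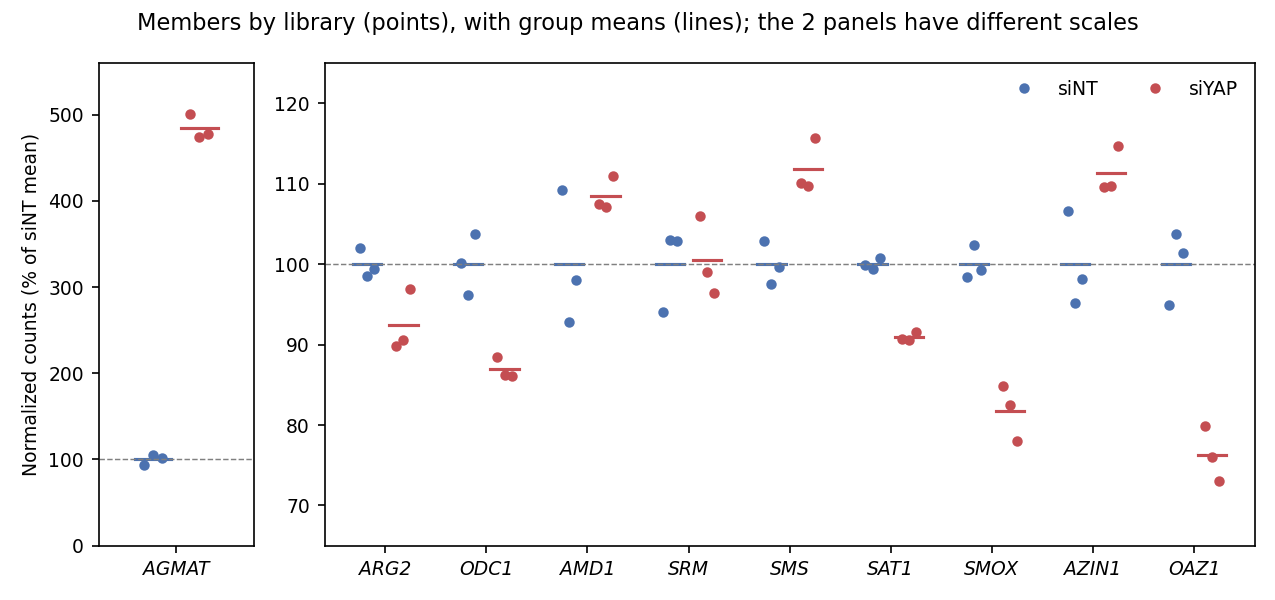
Normalized counts of the 10 members in each library, as a percentage of the siNT mean of that gene (y axis; the left panel, for AGMAT, has its own scale). Points are libraries and lines are group means (n = 3); AGMAT stands at 484% of siNT, and the other members lie between 76.3% (OAZ1) and 112% (SMS).

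AGMAT (ENSG00000116771, protein-coding, GRCh38 chromosome 1, 15572353 to 15585110, minus strand) had 444, 494 and 477 normalized counts in siNT replicates 1, 2 and 3. It had 2362, 2236 and 2252 in siYAP replicates 1, 2 and 3. Every siYAP library was thus far above every siNT library, and the spread within each group was small. The means were 471.7 ± 25.4 and 2283 ± 68.9 (SD, n = 3), a 4.84-fold higher level (log2 2.27, standard error 0.0576). AGMAT ranked 195 among the 8657 genes with a positive log2 fold change.

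AGMAT lies within the span of DNAJC16, a gene of the DnaJ co-chaperone family on the opposite strand (chromosome 1, 15526813 to 15592379), and the longest overlap of their exons is 82 bases. DNAJC16 went from 366 ± 27.0 to 442 ± 25.8 normalized counts (SD, n = 3), a difference of 76.1, while AGMAT differed by 1812. The strand setting of the counting is not given in the sources used here, so that reads over shared bases cannot be assigned. Since AGMAT is best known from liver, markers of hepatocytes are given beside it. All 7 of them were listed, and all 7 were called higher, beside 28.6% of all genes. Their summed level was 3920 to 4349 normalized counts in siNT and 10497 to 10773 in siYAP, most of it from the transcription factor gene HNF4A (3621 and 6889 on average). None was at 0, and ALB, which encodes albumin, averaged 8.69 and 66.1. Their part in the difference of AGMAT was not tested. In such bulk RNA, a change in the number of cells of a type and a change in RNA per cell cannot be told apart.

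The genes whose pattern over the 6 libraries was most like that of AGMAT were sought among the 12519 genes that averaged 50 normalized counts or more. Likeness was the mean absolute difference of log2 profiles, each centred on its own siNT mean. MYO15B, an unconventional myosin gene, was closest at 0.026. CDHR5, a protocadherin of the brush border, followed at 0.068. SLC4A8, a sodium-driven bicarbonate exchanger gene, was at 0.074, and MMP24, a membrane-type matrix metalloproteinase gene, and ANG, which encodes the secreted ribonuclease angiogenin, were both at 0.075. MYO15B stood at 576, 646 and 626 normalized counts in siNT and at 2984, 2987 and 2828 in siYAP. With the median in place of the mean absolute difference, 4 of these 5 genes were again among the nearest.

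**Figure D2:**
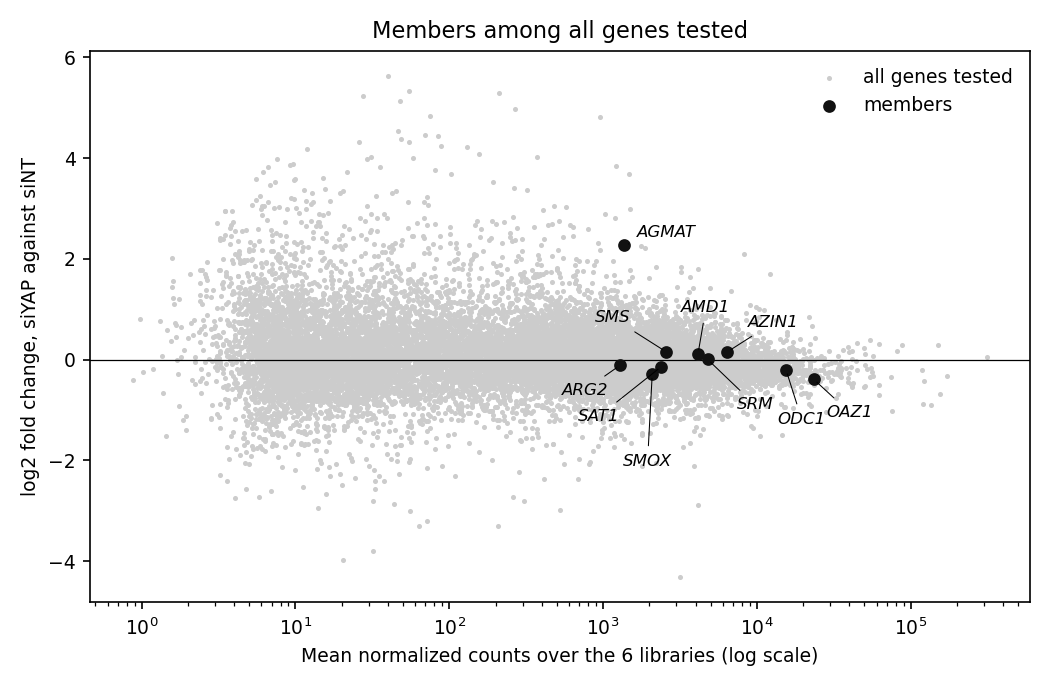
Log2 fold change of siYAP against siNT (y axis) by the mean normalized count over the 6 libraries (x axis, log scale). Grey points are the 17200 genes tested and black points the 10 members; AGMAT (2.27) stands apart from the other members, which lie between -0.39 (OAZ1) and 0.16 (SMS).

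The other member of the ureohydrolase family, ARG2 (ENSG00000081181, chromosome 14, 67619798 to 67651720, plus strand), encodes the mitochondrial arginase, which makes ornithine. It stood at 1361, 1315 and 1326 normalized counts in siNT and at 1198, 1208 and 1293 in siYAP. All siYAP values were lower, and siYAP replicate 3 came closest to the siNT libraries. The means were 1334 ± 24.3 and 1233 ± 51.9 (SD, n = 3; log2 -0.11, 95% interval -0.22 to -0.0041). That interval is not adjusted for the number of genes tested, and ARG2 was not called (limma, adjusted p = 0.0716). Without siYAP replicate 3 the log2 fold change was -0.15. ARG2 overlaps VTI1B, a SNARE gene on the other strand that was lower in siYAP (log2 -0.28), by up to 767 bases of exon. Within each library, AGMAT had 0.326 to 0.376 times the normalized counts of ARG2 in siNT and 1.74 to 1.97 times in siYAP.

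ODC1 (ENSG00000115758, chromosome 2, 10439968 to 10448504, minus strand) encodes ornithine decarboxylase, the short-lived enzyme that makes putrescine. Its normalized counts were 16569.8, 15916 and 17163 in siNT and 14643, 14278 and 14239 in siYAP. The groups did not overlap, and the lowest siNT library was above the highest siYAP library. The means were 16549.6 ± 624 and 14387 ± 223 (SD, n = 3), 86.9% of siNT (log2 -0.20, standard error 0.0404). ODC1 was among the most abundant transcripts of the set, with a siYAP minus siNT difference of -2163 normalized counts.

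AMD1 (ENSG00000123505, chromosome 6, 110874770 to 110895713, plus strand) encodes S-adenosylmethionine decarboxylase, which supplies the aminopropyl donor. It stood at 4339, 3688 and 3896 normalized counts in siNT and at 4270.0, 4255 and 4409 in siYAP. The groups overlapped because siNT replicate 1 was as high as the siYAP libraries. The log2 fold change was 0.12 (95% interval 0.012 to 0.23, not adjusted for the number of genes), and 0.19 without siNT replicate 1. With all libraries AMD1 was not called (limma, adjusted p = 0.0536). AMD1 has 4 annotated pseudogenes that could share its reads.

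SRM (ENSG00000116649, chromosome 1, 11054584 to 11060024, minus strand), which encodes spermidine synthase, had nearly the same mean in both groups. Its values were 4487, 4913 and 4907 normalized counts in siNT and 5055, 4724 and 4598 in siYAP, so that the groups overlapped throughout. The log2 fold change was 0.0071, with a 95% interval from -0.094 to 0.11, and its sign turned without siNT replicate 1 (-0.036) or siYAP replicate 1 (-0.032). SMS (ENSG00000102172, chromosome X, 21940573 to 21994835, plus strand) encodes spermine synthase, the enzyme of the next step. Its values were 2487, 2358 and 2408 in siNT and 2662, 2651 and 2795 in siYAP, with no overlap (111.8% of siNT, log2 0.16, standard error 0.0468). The ratio of SMS to SRM within a library was 0.508 ± 0.0401 in siNT and 0.565 ± 0.0408 in siYAP (SD, n = 3), and these ratios overlapped between groups.

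The members of polyamine acetylation and oxidation, SAT1 and SMOX, were lower, while PAOX, an oxidase outside the members, was higher (log2 0.50). SAT1 (ENSG00000130066, chromosome X, 23783173 to 23786226, plus strand) encodes the spermidine/spermine acetyltransferase that marks polyamines for oxidation or export. Its normalized counts were 2499.5, 2488 and 2523 in siNT and 2271, 2266 and 2291 in siYAP, and it had the smallest spread of all members, below 1% of the mean in each group. SAT1 stood at 90.9% of siNT (log2 -0.14, standard error 0.0450). With equal totals its log2 fold change was -0.050.

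SMOX (ENSG00000088826, chromosome 20, 4120980 to 4187747, plus strand) encodes spermine oxidase, which turns spermine back to spermidine and releases hydrogen peroxide. It had 2259.7, 2350.5 and 2278 normalized counts in siNT and 1947, 1894 and 1790.0 in siYAP. Its siYAP libraries were all below its siNT libraries, at 81.8% of the siNT mean (log2 -0.29, standard error 0.0490). The ratio of SMOX to SMS, the enzymes that run between spermidine and spermine in opposite directions, was 0.950 ± 0.0443 in siNT and 0.695 ± 0.0484 in siYAP (SD, n = 3). Such a ratio is taken within a library and does not depend on the size factors.

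The genes that set the activity of ornithine decarboxylase differed in opposite directions. OAZ1 (ENSG00000104904, chromosome 19, 2269509 to 2273490, plus strand) encodes antizyme, which binds ornithine decarboxylase and sends it to the proteasome. It was the most abundant member and, after AGMAT, the one with the largest log2 difference. OAZ1 had 25264, 27588 and 26972 normalized counts in siNT and 21245, 20227 and 19438 in siYAP. Every siYAP library was lower, and the means were 26608 ± 1204 and 20303 ± 906 (SD, n = 3), 76.3% of siNT (log2 -0.39, standard error 0.0432). OAZ1 overlaps JSRP1 on the other strand, a gene at 107.7 ± 34.6 and 101.5 ± 29.4 normalized counts (SD, n = 3).

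AZIN1 (ENSG00000155096, chromosome 8, 102826357 to 102893864, minus strand) encodes antizyme inhibitor, a relative of ornithine decarboxylase without its activity that draws antizyme away. It had 6482, 5789 and 5972 normalized counts in siNT and 6662, 6673 and 6977 in siYAP. The siYAP libraries were higher without overlap, by a narrow margin over siNT replicate 1, at 111.3% of siNT (log2 0.16, standard error 0.0465). Without siNT replicate 2 the log2 fold change was 0.12. An overlapping antisense transcript, MAILR, was near 24.4 normalized counts on average.

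AZIN1 and OAZ1 were also compared with each other within each library. The ratio of AZIN1 to OAZ1 was 0.257, 0.210 and 0.221 in siNT and 0.314, 0.330 and 0.359 in siYAP. All siYAP ratios were above all siNT ratios, by 1.46 times on average. The ratio of AZIN1 to ODC1 was 0.368 ± 0.0219 in siNT and 0.471 ± 0.0178 in siYAP (SD, n = 3), and that of ODC1 to OAZ1 was 0.623 ± 0.0411 and 0.709 ± 0.0218, again without overlap. The antizyme transcript thus stood lower against both of its protein's binding partners in siYAP. Protein levels, on which this regulation mostly acts, were not measured.

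**Figure D3:**
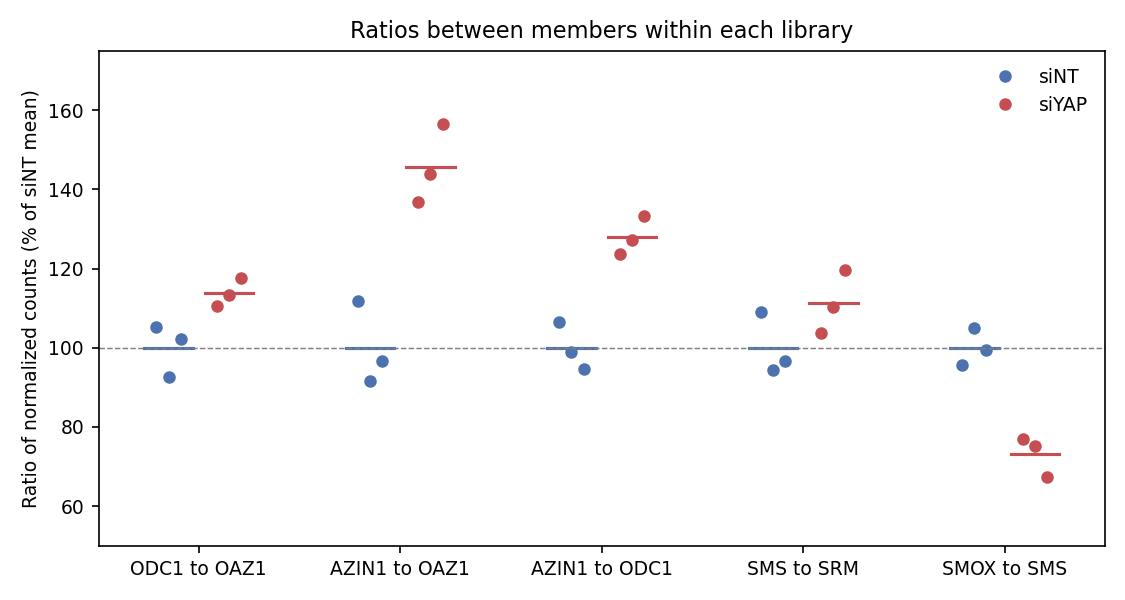
Ratios of normalized counts between pairs of members within each library, as a percentage of the siNT mean of the ratio (y axis). Points are libraries and lines group means (n = 3); the AZIN1 to OAZ1 ratio has siNT and siYAP means of 0.229 and 0.334, and only the SMS to SRM ratio overlaps between the groups.

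Levels were compared between genes as normalized counts per kb of the gene's annotated exons. In siNT the order from high to low was OAZ1 (7744 ± 350.4), ODC1 (5576 ± 210.2), SRM (2513 ± 128.7), SMS (1119 ± 30.1), SAT1 (1002 ± 7.11), AZIN1 (946 ± 55.9), SMOX (779 ± 16.3), AMD1 (566 ± 47.4), ARG2 (552 ± 10.1) and AGMAT (188.7 ± 10.2; SD, n = 3 for each). Neighbours whose libraries overlapped were SAT1 with AZIN1 and AMD1 with ARG2. In siYAP, AGMAT was at 913 ± 27.6 per kb (SD, n = 3), level with SAT1 at 911 ± 5.33, and had passed SMOX, AMD1 and ARG2. Among the other members, AZIN1 (1054 ± 27.8) and SAT1 exchanged places, and SMOX (637 ± 27.2) came to overlap AMD1 (614 ± 12.1). OAZ1, ODC1, SRM and SMS kept the upper places in both groups. Exons of all annotated isoforms enter the length, which was longest for AMD1 and AZIN1 (7027 and 6426 bases), so that the order depends on which isoforms are used.

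**Figure D4:**
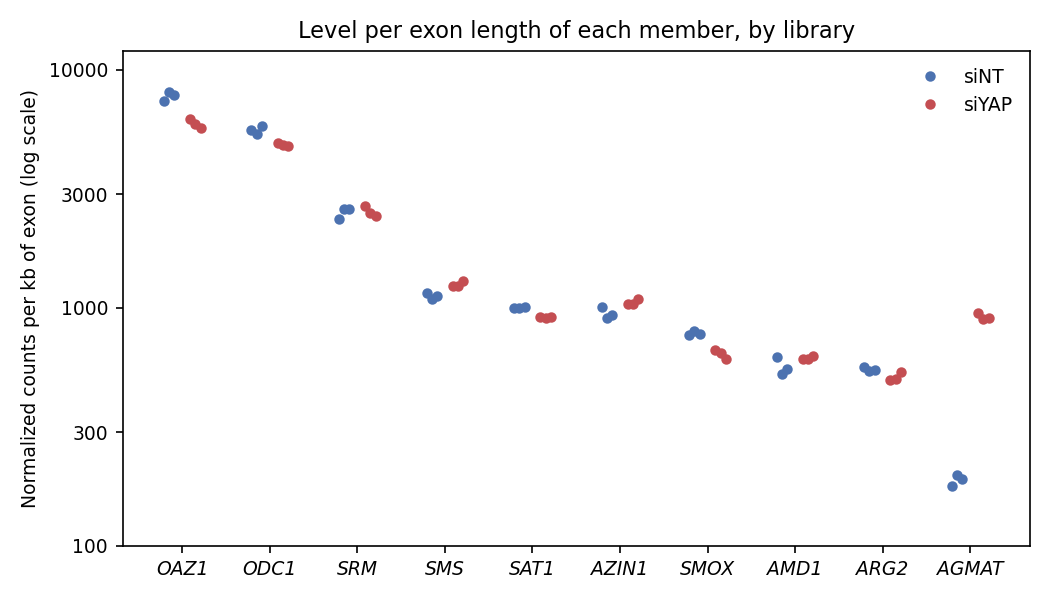
Normalized counts per kb of annotated exon for the 10 members (y axis, log scale), ordered by their siNT mean; points are the 3 libraries of each group. AGMAT goes from 188.7 per kb in siNT, the lowest of the set, to 913 in siYAP, level with SAT1 at 911.

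The rest of the pathway was described from 7 lists drawn up by function, of which 60 of 73 genes were listed and tested. Of these 60 genes, 21 rose, 22 fell and 17 were not called (limma, Benjamini-Hochberg adjusted p under 0.05), with a median log2 fold change of -0.014. Over all genes tested, 28.6% were called higher and 28.1% lower, 56.8% in all, and the counts of each list below stand beside these shares. With equal totals 26 rose and 17 fell.

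The protein that depends directly on spermidine is the translation factor eIF5A, which carries hypusine, a residue built from it. All 4 genes of this list were called, beside 56.8% of all genes. EIF5A, the main form, fell from values of 23623, 26655 and 26415 to 16969.5, 15971 and 15442 normalized counts (log2 -0.66, adjusted p = 7.76e-11). The enzymes that make hypusine fell with it: deoxyhypusine synthase, DHPS (2027 ± 67.1 to 1524 ± 109.7 normalized counts; SD, n = 3; log2 -0.41, adjusted p = 1.32e-06), and deoxyhypusine hydroxylase, DOHH (1394 ± 95.1 to 963 ± 50.8; SD, n = 3; log2 -0.53, adjusted p = 1.23e-07). EIF5A2, the second isoform gene, went the other way. Its normalized counts were 329, 319 and 283 in siNT and 686, 750.1 and 787 in siYAP (log2 1.25, adjusted p = 6.87e-12). The ratio of EIF5A2 to EIF5A within a library went from 0.0122 ± 0.00162 to 0.0461 ± 0.00531 (SD, n = 3). EIF5A has 4 annotated copies and overlaps GPS2 on the other strand, and DHPS overlaps WDR83, so that their exact counts are uncertain.

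Polyamine synthesis releases methylthioadenosine, which the methionine salvage pathway recycles. In the list of the methionine cycle and salvage, 9 of 11 genes fell and 2 rose, beside 28.1% lower and 28.6% higher over all genes. Their median was -0.22 on the log2 scale, against 0.0036 over all genes tested. MTAP, which cleaves methylthioadenosine, fell (2731 ± 232 normalized counts in siNT, 2086 ± 84.6 in siYAP; SD, n = 3; log2 -0.39, adjusted p = 4.45e-06). MRI1, the isomerase of the next step, fell by 0.51 on the log2 scale (adjusted p = 2.03e-08). The dioxygenase gene ADI1 fell most, from 4417, 4323 and 4625 to 2821, 2809 and 2731 normalized counts (log2 -0.68, adjusted p = 2.38e-11). The remaining salvage genes fell less: ENOPH1 (log2 -0.22), APIP (log2 -0.16) and the aminotransferase gene GOT1 (log2 -0.12).

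In the methionine cycle itself, MAT2A, the catalytic subunit of S-adenosylmethionine synthetase, and its regulatory subunit MAT2B both fell (log2 -0.22 and -0.22), as did AHCY, which hydrolyses S-adenosylhomocysteine (log2 -0.27). The genes that rose were the methionine synthase gene MTR (log2 0.21) and CBS. CBS encodes cystathionine beta-synthase, which takes homocysteine out of the cycle, and went from 179.5 ± 10.6 to 571 ± 37.5 normalized counts (SD, n = 3; log2 1.66, adjusted p = 2.54e-13). ADI1, MRI1, APIP, GOT1 and MAT2A overlap other listed genes, and their counts are uncertain there. The calls of APIP and GOT1 depended on processing and on single libraries, and were kept in 7 and 10 of 16 alternatives. APIP was not called with upper-quartile scaling (adjusted p = 0.0571), equal totals (log2 -0.072, adjusted p = 0.342), limma without its trend and robust options (0.106) or DESeq2 (0.0502). GOT1 was not called with equal totals (log2 -0.033, adjusted p = 0.507) or without those options (0.0572). APIP had an adjusted p of 0.168 without siNT replicate 1, 0.0509 without siNT replicate 3, 0.0774 without siYAP replicate 1 and 0.0967 without siYAP replicate 2. GOT1 had 0.0736 without siNT replicate 3, 0.0730 without siYAP replicate 2 and 0.0656 without siYAP replicate 3.

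Among genes of arginine, ornithine and the urea cycle, 6 of 14 rose, 1 fell and 7 were not called, beside 56.8% called over all genes, with a median log2 fold change of 0.19. ASS1, argininosuccinate synthase, the step that lets cells rebuild arginine from citrulline, rose from 11.5, 18.2 and 19.3 to 130.5, 143 and 88.5 normalized counts (log2 2.81, adjusted p = 3.67e-10). ASS1 remained a low transcript and has 11 annotated pseudogenes. OAT, which interconverts ornithine and glutamate semialdehyde, rose from 2595 ± 135 to 3431 ± 57.8 (SD, n = 3; log2 0.40, adjusted p = 2.25e-07), and ALDH18A1, which makes that semialdehyde from glutamate, rose by 0.31 on the log2 scale. DDAH1, which breaks down methylated arginines, rose from 5136 ± 129 to 7082 ± 239.6 (SD, n = 3; log2 0.46). The creatine synthesis genes GAMT (log2 0.61) and GATM (10.6 ± 5.60 to 19.9 ± 1.05; SD, n = 3; log2 0.95) rose too. The ornithine carrier gene SLC25A15 fell (log2 -0.23, adjusted p = 0.00280). GATM lay near the floor, and lost its call without siNT replicate 1 (log2 0.67, adjusted p = 0.0905) and, marginally, without siYAP replicate 1 (log2 0.92). It was also not called with DESeq2 (adjusted p = 0.0901) or with limma without its trend and robust options (0.0618). Without siNT replicate 1 the number of genes that fell in this list was 2.

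Of 11 listed genes of polyamine and basic amino acid transport, 6 rose, 2 fell and 3 were not called, beside 28.6% higher and 28.1% lower over all genes, with a median log2 fold change of 0.37. SLC22A3, an organic cation transporter that carries agmatine and polyamines, rose from 603, 611 and 624 to 1716, 1717 and 1902 normalized counts (log2 1.53, adjusted p = 1.95e-15). ATP13A3, a P5B-type ATPase of polyamine uptake, rose from 6713 ± 552 to 9092 ± 611 (SD, n = 3; log2 0.44), while its lysosomal relative ATP13A2 stood at 3388 ± 205.4 and 3510.4 ± 149.5 (SD, n = 3; adjusted p = 0.402). SLC18B1, a vesicular polyamine transporter gene, rose by 0.40 on the log2 scale. SLC12A8 rose by 0.38, but had an adjusted p of 0.0988 without siNT replicate 3 (log2 0.25).

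The arginine carriers moved in opposite directions. SLC7A1, the main carrier of cationic amino acids in proliferating cells, fell (6986 ± 185 normalized counts in siNT, 5419.9 ± 37.1 in siYAP; SD, n = 3; log2 -0.37, adjusted p = 1.25e-07). Its relative SLC7A2 rose (1411 ± 62.0 to 1801 ± 52.2; SD, n = 3; log2 0.35). SLC3A2, the heavy chain shared by several amino acid exchangers, fell by 0.24 on the log2 scale, and SLC7A7, a light chain that pairs with it to export arginine, rose from 45.3 ± 3.15 to 97.4 ± 5.77 normalized counts (SD, n = 3).

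Relatives of the members were listed too. Of 5 listed genes of antizymes, inhibitors, acetylases and oxidases, PAOX rose, OAZ2 fell and AZIN2, OAZ3 and SAT2 were not called, beside 56.8% called over all genes. PAOX, the peroxisomal oxidase that acts on acetylated polyamines made by the SAT1 enzyme, went from 429, 433 and 387 to 609, 600.1 and 559 normalized counts (log2 0.50, adjusted p = 3.61e-06). OAZ2, the second antizyme gene, was at 2802 ± 70.7 and 2594 ± 98.2 (SD, n = 3; log2 -0.11, adjusted p = 0.0493). The call of OAZ2 was kept under 4 of 16 alternatives. Its adjusted p was 0.101, 0.0861 and 0.0616 without siNT replicates 1, 2 and 3, and 0.118 and 0.217 without siYAP replicates 1 and 2.

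The list headed diamine oxidation to GABA also took in other amine oxidase genes and ABAT, which acts on GABA itself. All 5 genes of this list were called, 3 higher and 2 lower, beside 56.8% called over all genes. DESeq2 called neither AOC1 nor AOC2 (adjusted p = 0.108 and 0.109). ABAT, the transaminase that degrades GABA, rose from 64.9, 70.5 and 45.9 to 280.0, 291 and 240.6 normalized counts (log2 2.16, adjusted p = 2.22e-11), and ALDH9A1, which oxidises aminobutyraldehyde, rose by 0.34 on the log2 scale. The amine oxidase genes were low. AOC3 fell (31.9 ± 6.60 to 15.9 ± 2.64 normalized counts; SD, n = 3; adjusted p = 0.00299). AOC1, which oxidises putrescine, was called higher (21.6 ± 6.60 to 33.7 ± 5.47; SD, n = 3), although its groups overlapped (27.8 in siNT replicate 3, 27.6 in siYAP replicate 3). AOC1 had an adjusted p of 0.181 without siNT replicate 1, 0.113 without siYAP replicate 1 and 0.0945 without siYAP replicate 2. Its adjusted p was 0.0830 with limma without its trend and robust options. AOC2 was called lower (82.0 ± 7.05 to 61.9 ± 9.75; SD, n = 3), with 0.0570 and 0.112 without siNT replicates 2 and 3, and 0.149 and 0.0709 without siYAP replicates 2 and 3, and 0.0861 with equal totals.

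**Figure D5:**
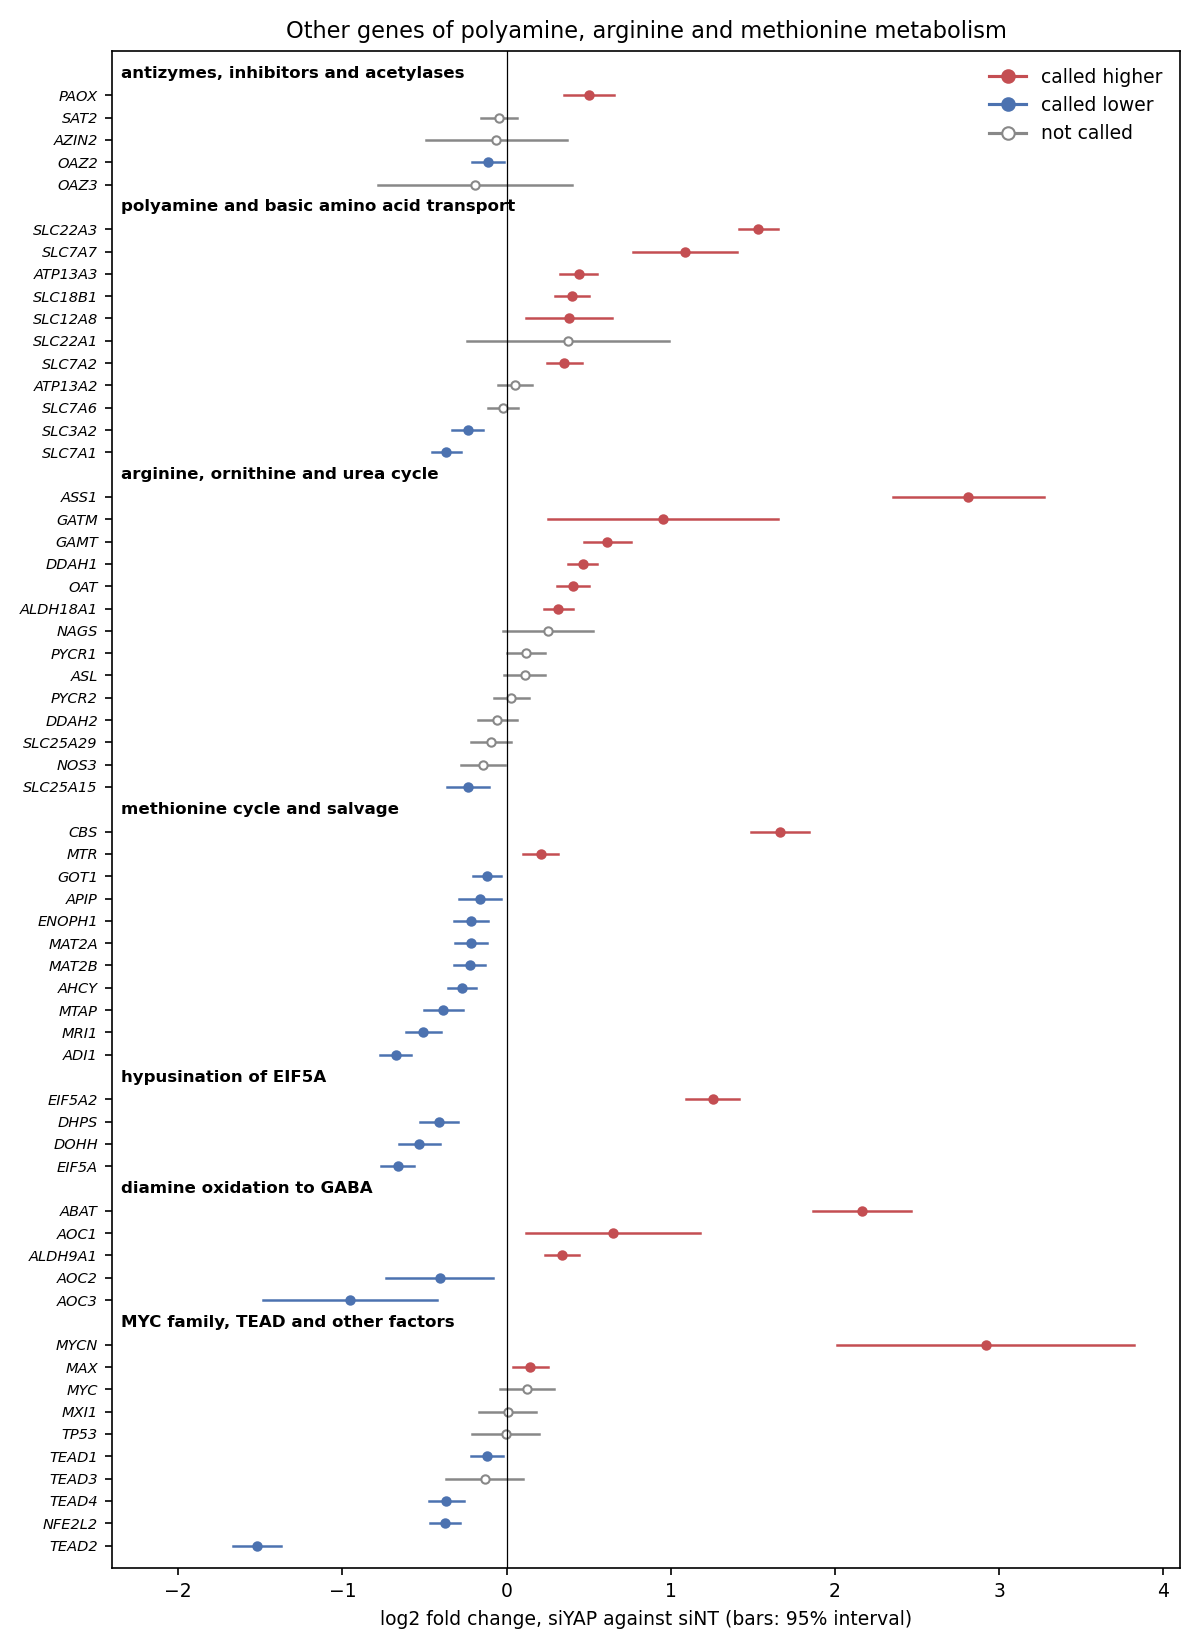
Log2 fold change of siYAP against siNT (x axis) for the 60 other genes of the pathway, grouped by list; bars are 95% intervals from limma, filled points are called genes (red higher, blue lower) and open points are not called. All 4 genes around eIF5A and all 11 of the methionine list are called, 9 of the latter lower.

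Transcription factors were listed because MYC with MAX is known to drive ODC1 and other polyamine genes, and TEAD proteins are the partners of YAP. MYC had 308, 321 and 343 normalized counts in siNT and 355, 348 and 354 in siYAP (log2 0.12, adjusted p = 0.195), and was called under equal totals only (log2 0.21, adjusted p = 0.0273). MYCN rose from 1.81 ± 1.16 to 19.4 ± 3.69 normalized counts (SD, n = 3; adjusted p = 5.58e-06), a level near the floor. MAX was called higher (log2 0.15, adjusted p = 0.0170), but not without siNT replicate 2 (adjusted p = 0.0645) or siYAP replicate 1 (adjusted p = 0.108). Nor was MAX called with limma without its trend and robust options (adjusted p = 0.0608). NFE2L2, the regulator of antioxidant genes, fell by 0.38 on the log2 scale. Of the 4 TEAD genes, TEAD2 (1775 ± 82.7 to 620.5 ± 71.9 normalized counts; SD, n = 3; log2 -1.52), TEAD4 (log2 -0.37) and TEAD1 (log2 -0.12) were called lower. TEAD1 had an adjusted p of 0.0681 and 0.0691 without siNT replicates 1 and 3, and 0.171 and 0.0598 without siYAP replicates 1 and 2. It kept its call in 8 of 16 alternatives, and lost it also with upper-quartile scaling (0.0702), equal totals (log2 -0.032, adjusted p = 0.587) and limma without its trend and robust options (0.106).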

How the data were processed

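Each gene has a single deposited signal value in every library. The submitters' processing notes name HISAT2, HTSeq, DESeq2 and FastQC, and the builds mm9 and hg19. Versions, roles, annotation and strand setting are not stated there. The authors' values are reads divided by a size factor: 100% were whole multiples of a library's step within 0.01 of a read. Here, log2(value + 1) was fitted by group with limma 3.58.1 (trend, robust; R 4.3.3) for 17200 genes at 1 or more in at least 3 libraries, p-values adjusted by Benjamini-Hochberg over all of them. Fold changes on this scale understate changes of low genes. The fit was tried on simulated counts in which few genes differed, all of them higher. These data differ from that setting, so the trial does not vouch for the calls here. edgeR 4.0.16 and DESeq2 1.42.0 on the recovered reads were among 16 alternatives; edgeR called 9582 genes and DESeq2 8778.

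The members and lists were chosen with earlier results of these data known. Named were all members, YAP1, genes overlapping a member, the 5 genes nearest to AGMAT and, per list, up to 4 called genes averaging 20 or more and having the largest absolute log2 fold change. ALDH9A1, ALDH18A1, AHCY, APIP, ATP13A2, ENOPH1, GATM, GOT1, HNF4A, MAT2A, MAT2B, MTR, MYC, MYCN, SLC3A2, SLC7A1, SLC7A2, SLC12A8, SLC25A15 and TEAD1 were added after their values were seen. Identifiers were given symbols from human gene names (16662 of 17211 identifiers matched; 16743 with GENCODE 29). Coordinates and exon lengths are those of GENCODE 29, matched by identifier.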

Additional observations from a re-analysis of the deposited data

How the results depend on the processing

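The log2 fold changes of AGMAT (2.23 to 2.36), ODC1, SMS, SMOX and OAZ1 kept their sign and their side of the threshold in all 16 alternatives. The number of members called lay between 6 and 8, and that of other pathway genes between 36 and 43. AMD1 was called in 5 alternatives: TMM (0.13), upper-quartile (0.14) and equal-total (0.21) scaling, edgeR (0.13) and without siNT replicate 1 (0.19). Leaving out 1 library gave AMD1 values from 0.068 to 0.19. SAT1 lost its call with equal totals (-0.050) with the replicate block (-0.14) and without siYAP replicate 2 (-0.13). AZIN1 lost its call in limma without its trend and robust options (0.16) and without siNT replicate 2 (0.12). ARG2 was called without siYAP replicate 3 (-0.15). Leaving out 1 library gave -0.14 to -0.13 for SAT1, 0.12 to 0.20 for AZIN1, -0.15 to -0.094 for ARG2 and -0.036 to 0.036 for SRM, whose sign turned. JSRP1, never called, turned sign with equal totals (0.0079) and lay between -0.30 and 0.17 with 1 library left out. The cause of these changes was not tested. Fits with 1 library left out also have fewer libraries, which was not separated from the part of the library itself. Of 59 called genes named, 48 kept the call in every alternative. Libraries with the same replicate number did not deviate together (r = -0.0962, -0.00873 and 0.00831). With 3 libraries per group, this cannot settle whether the numbers pair them. With the replicate block 9141 genes, 6 members and 39 other pathway genes were called. APIP (adjusted p = 0.0605), GOT1 (0.0736), OAZ2 (0.125) and TEAD1 (0.0979) were among those that lost the call. Depth limits the 3 of 60 other pathway genes with a mean under 20 normalized counts.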
